A study of Mus musculus with 2 samples.

Results

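Beta-catenin, encoded by Ctnnb1, and lymphoid enhancer binding factor 1, encoded by Lef1, were each named by 1 region in lists of chromatin bound by Smyd2, a lysine methyltransferase, in mouse kidney cells. The Ctnnb1 region was in the list from cells with wild-type Pkd1 and held 12 reads, and the Lef1 region was in the list from Pkd1 null cells and held 14 reads. Neither gene was named in the other list. Members were chosen by the gene that the deposited lists assign to a region, Ctnnb1 or Lef1, which gave 2 of 422 regions: 1 of 187 for wild type and 1 of 235 for null.

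The samples were renal epithelial cells called MEK cells, of embryonic kidney origin and strain C57BL/6, either wild type for Pkd1 or homozygous null (Pkd1null/null). Mutations of Pkd1 are the commonest cause of autosomal dominant polycystic kidney disease. Both cultures were kept at 33°C in a low-serum medium with interferon-gamma and hormones. From each, 1 chromatin immunoprecipitation sequencing (ChIP-seq) library was made, and the Smyd2 antibody lot did not differ between them. The labels do not say whether each culture was 1 clone. No input or control-antibody library was analysed here. With 1 library per genotype there was no replicate error and no test of the genotypes. ChIP reads hold no expression values, so neither the Pkd1 genotype nor the cell type could be checked from these files: of 14 renal epithelial, fibroblast, endothelial and immune marker genes, 0 were named in either list.

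In canonical Wnt signalling, a Wnt ligand binds a Frizzled receptor with its Lrp5 or Lrp6 co-receptor, and the cytoplasmic complex that marks beta-catenin for degradation is then held back. Beta-catenin accumulates, enters the nucleus and binds Lef1 or another member of the TCF/LEF family, which carries the DNA-binding domain that beta-catenin lacks. In epithelia beta-catenin also links cadherins to the actin cytoskeleton at cell junctions, and in the kidney Wnt signals act in tubule formation.

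The Ctnnb1 region (ENSMUSG00000006932 in the deposited list) lay at chr9:120932401-120933000 of GRCm38, and the Lef1 region (ENSMUSG00000027985) at chr3:131144551-131145150. Both were 600 bp wide, the smallest width in either list, shared by 60 of 187 wild-type and 51 of 235 null regions. Both carried the orientation label overlapping and a distance of 0 bp. That label was common, given to 50.3% of wild-type and 53.6% of null regions. The members were selected on being listed, and the rule names their position, reads, rank and presence in each list, so these values are descriptions and carry no test.

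The DNA just before the annotated starts is shown because the Ctnnb1 region borders a promoter and the Lef1 region does not. The sequences are the 250 bases before a start (RefSeq, GRCm38.p6, plus strand, 5′ to 3′), with each CG dinucleotide in capitals because runs of CG mark the CpG-rich kind of promoter. The Ctnnb1 stretch, chr9:120933150-120933399, begins 150 bp beyond the edge of the wild-type region. For Lef1, the stretch before the first start, chr3:131110047-131110296, and the one before the start nearest to the null region, chr3:131156044-131156293, are shown.
Ctnnb1: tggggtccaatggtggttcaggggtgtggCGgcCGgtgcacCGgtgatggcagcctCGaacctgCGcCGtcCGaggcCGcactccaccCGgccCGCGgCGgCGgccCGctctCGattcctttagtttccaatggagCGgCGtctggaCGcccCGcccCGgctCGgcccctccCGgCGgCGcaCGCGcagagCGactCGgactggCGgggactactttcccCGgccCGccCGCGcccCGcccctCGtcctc
Lef1 first start: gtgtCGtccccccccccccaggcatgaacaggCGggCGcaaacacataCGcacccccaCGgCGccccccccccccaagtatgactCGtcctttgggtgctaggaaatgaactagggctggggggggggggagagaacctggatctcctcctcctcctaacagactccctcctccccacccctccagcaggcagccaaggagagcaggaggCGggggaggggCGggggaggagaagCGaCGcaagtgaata
Lef1 nearest start: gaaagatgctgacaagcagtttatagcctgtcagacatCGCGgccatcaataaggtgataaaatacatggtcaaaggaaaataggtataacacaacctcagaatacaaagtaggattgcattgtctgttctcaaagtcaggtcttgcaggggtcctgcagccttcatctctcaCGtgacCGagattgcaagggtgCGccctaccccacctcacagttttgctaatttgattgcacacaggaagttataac

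The Ctnnb1 stretch was 74.8% G or C and held 35 CG dinucleotides, more than 97.0% of the 32851 such stretches in the RefSeq promoter table, whose median was 6. The first Lef1 start followed a stretch with 66.4% G or C and 11 CG dinucleotides, above 85.2% and 64.4% of the stretches in the table. The next Lef1 start, at 131110323, followed one with 14 CG dinucleotides, more than 70.6% of them. The start nearest to the null region followed a stretch with 44.8% G or C and 5 CG dinucleotides. The 5-letter core of the sequence that TCF/LEF proteins bind, CTTTG on either strand, occurred 0 times before the first Ctnnb1 start, 1 time before the first Lef1 start, 2 times before the start that follows it and 3 times before the Lef1 start nearest to the region. Of these last 3 matches, 2 extended to CTTTGA and 1 to CTTTGT, 6-letter forms that contain the core. The stretches before the first Lef1 start and the start that follows it overlap, and the match of the former lies in both. The core occurred at least 1 time in 48.6% of all 250-base stretches of the table, CTTTGA in 13.8% and CTTTGT in 16.5%. These letters describe the DNA beside the regions and not Smyd2 occupancy. The sequence of the regions themselves was not used here.

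The Ctnnb1 region was at the promoter side of its gene. Its midpoint lay 0.70 kb before the first annotated start, at 120933400, and its nearer edge lay 400 bp before it. RefSeq gives Ctnnb1 the span 120933400 to 120960507 on the plus strand, with 2 starts in the promoter table. By that span the region lay outside the gene, in sequence between genes, whereas the deposited list gives it as overlapping. The annotation behind the deposited label is not given in the sources used here. Such a disagreement was rare: of 79 wild-type regions labelled overlapping a gene of the RefSeq table, 77 overlapped its span, and Ctnnb1 and Ece2 were the exceptions. On the other side, the start of the long non-coding RNA gene 4930593C16Rik, which runs on the minus strand, lay 1.60 kb from the region's edge. The region therefore sat in the 2.598 kb between 2 starts that point away from each other. The next gene beyond Ctnnb1, the kinase-family gene Ulk4, had its nearer end 31.5 kb from the region.

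The Lef1 region was in the gene body. Its midpoint lay 34.6 kb after the first start, 30.3% of the way along the 114 kb RefSeq span (131110297 to 131224357, plus strand). The promoter table gives Lef1 4 starts, and the one nearest to the region, at 131156294, lay 11.4 kb beyond the midpoint. The flanking genes were Gm36603, a long non-coding RNA gene 36.6 kb before the region, and Hadh, a gene of mitochondrial fatty acid oxidation, 88.3 kb after it. Whether the region was exonic or intronic was not analysed here, since the gene table gives spans without exons.

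**Figure D1:**
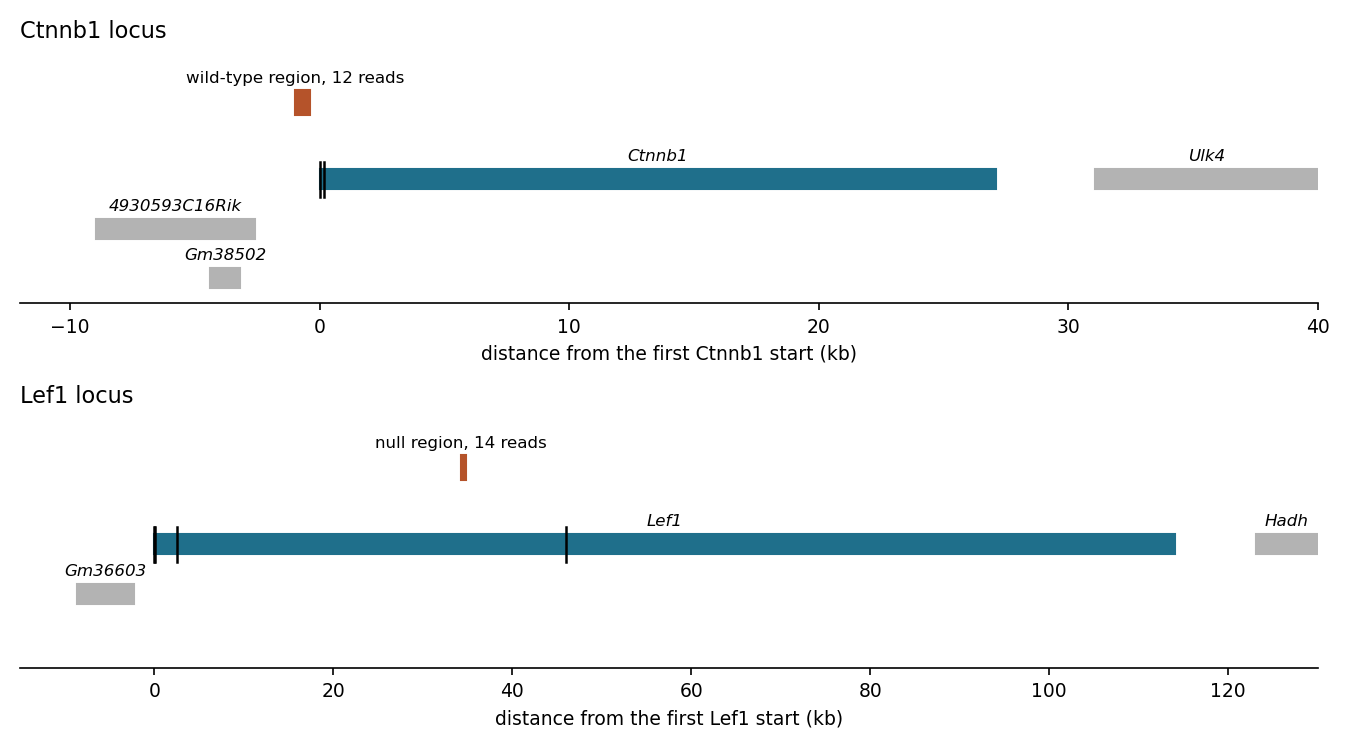
Position of each region (orange) against its gene (blue) and neighbouring genes (grey, cut at the edge of the panel), with the x axis in kb from the first annotated start and black ticks at the annotated starts. The Ctnnb1 region sits 0.4 kb before the first start, and the Lef1 region sits 34.6 kb inside the gene, with the next start 11.4 kb further on.

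Regions near a gene start made up a small part of both lists. The share of the genome near a start was not computed, so enrichment or depletion there was not tested. A midpoint within 1 kb of a start was found for 7 wild-type regions (3.74%), Ctnnb1 among them, and for 12 null regions (5.11%), without Lef1. The promoter table holds starts for 17492 of 21887 protein-coding genes, so both shares are lower limits. The 7 wild-type regions held 12 to 16 reads, with a median of 14. Of these, 4 lay before a start, at Ctnnb1, Camk2n2, A330041J22Rik and Gm19705, and the last 3 are named after their values were seen. The deposited list assigns the Camk2n2 region to Ece2, the A330041J22Rik region to Me1 and the Gm19705 region to no gene. None of the 7 or the 12 was also listed in the other library. Of all regions, 16.6% of the wild-type and 13.2% of the null list were in both, so such small numbers do not set regions near a start apart. The median distance from a midpoint to the nearest start was 36.9 kb for wild type and 30.9 kb for null (upper limits, for the same reason), so the Lef1 region, at 11.4 kb, lay below the median of its list.

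Read numbers were low at both genes. The Ctnnb1 region held 12 reads (exact Poisson 95% interval 6.20 to 21.0, counting error only), against a median of 14 and a lowest value of 11 in the wild-type list. More reads were found in 130 wild-type regions, the same number in 33 including Ctnnb1, and fewer in 24, so it ranked 131 to 163 of 187. The Lef1 region held 14 reads (7.65 to 23.5), against a median of 13 and a lowest value of 11 in the null list. More reads were found in 92 null regions, the same number in 22 including Lef1, and fewer in 121, so it ranked 93 to 114 of 235. Ctnnb1 was thus in the lower part of its list and Lef1 slightly above the middle of its own. Because both regions were narrow, their density placed them higher: 20 reads per kb at Ctnnb1, equal to the list median, with 76 wild-type regions above it, and 23.3 reads per kb at Lef1 (list median 18.9), with 44 null regions above it. The highest region held 1893 reads in the wild-type and 1396 in the null list.

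**Figure D2:**
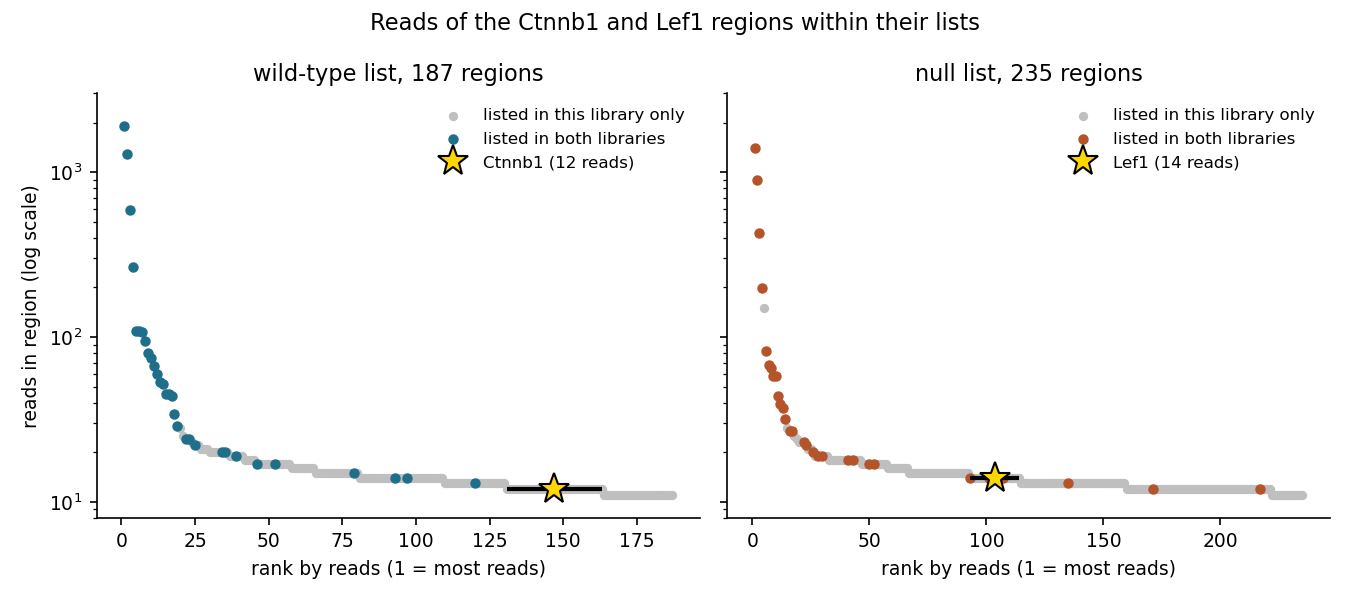
Reads per region (log axis) against rank in the wild-type list (left) and the null list (right), with regions listed in both libraries in colour and the others in grey. The stars mark Ctnnb1 with 12 reads and Lef1 with 14 reads at the middle of their tied ranks, which the black bars span. Both sit on the flat part of the curve where few regions are coloured.

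Neither region had a counterpart in the other library. The nearest null region to the Ctnnb1 region lay 6.01 Mb away, at Gpd1l (13 reads), and the nearest wild-type region to the Lef1 region lay 1.93 Mb away, at Gstcd (12 reads). For regions in 1 list only, the median distance to the nearest region of the other list was 4.41 Mb for wild type and 5.98 Mb for null. Within their own lists, the next wild-type region lay 31.2 Mb from Ctnnb1 (median spacing 4.41 Mb, upper quartile 10.5 Mb) and the next null region 2.15 Mb from Lef1 (median spacing 4.01 Mb).

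Being listed once was the usual outcome for regions with so few reads. Over the whole lists, 16.6% of wild-type and 13.2% of null regions overlapped a region of the other list by at least 1 bp. Among the other wild-type regions with 11 to 13 reads, as at Ctnnb1, 1 of 77 was in both lists (1.299%, exact binomial 95% interval 0.0329 to 7.02). Of the 32 others with exactly 12 reads 0 were in both, which by the limit of 3 counts of 32 leaves room for 9.38%. Among the other null regions with 13 to 15 reads, as at Lef1, 5 of 92 were in both lists (5.43%, interval 1.79 to 12.2), and of the 21 with exactly 14 reads 4 were (19.05%, interval 5.45 to 41.9). At 30 reads or more, by contrast, 18 of 18 wild-type and 13 of 14 null regions were in both. No input or control-antibody library was analysed, so Smyd2 binding and background signal could not be told apart at these regions. Absence of Ctnnb1 from the null list and of Lef1 from the wild-type list was what most regions of like read number showed. Such absence is no measure of a difference between the genotypes, because 1 library per genotype cannot tell genotype and library apart.

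**Figure D3:**
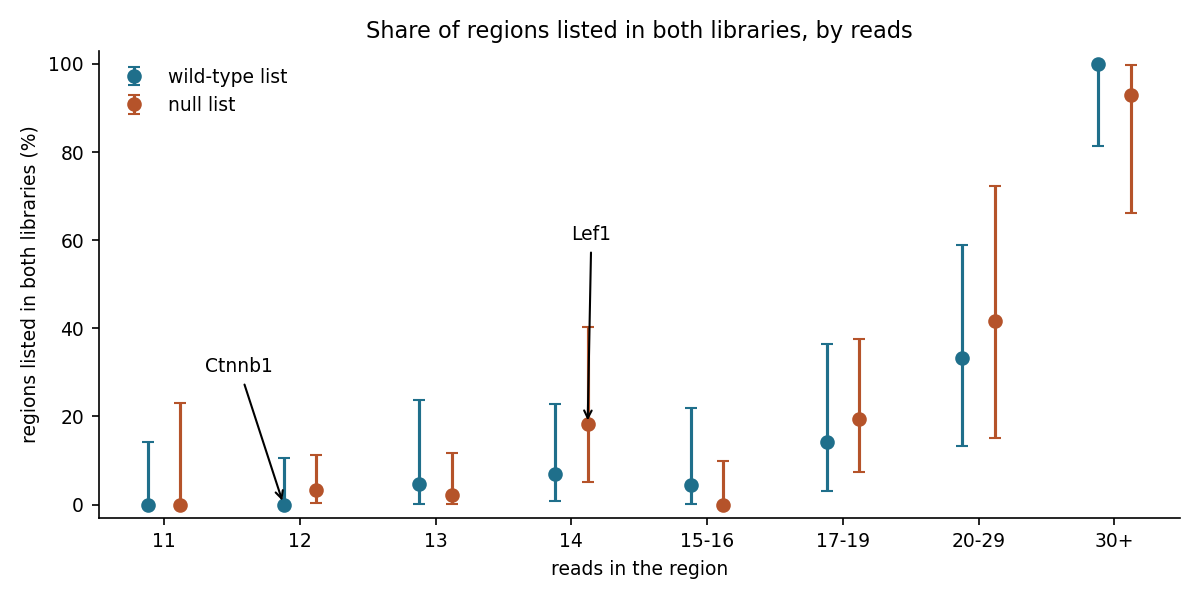
Share of regions also listed in the other library (y axis, percent, with exact binomial 95% intervals) by reads in the region (x axis) for the wild-type and null lists. The share is 0 of 33 at 12 reads in the wild-type list, where Ctnnb1 lies, 4 of 22 at 14 reads in the null list, where Lef1 lies, and 100% in the wild-type and 92.9% in the null list at 30 reads or more.

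Reads at Ctnnb1 in the null library and at Lef1 in the wild-type library are not in the lists. The 31 shared pairs were not used as 1 scale by which to set the libraries side by side at these read numbers. Over all pairs wild-type reads were 1.41 times null reads (exact 95% interval 1.35 to 1.47), but 4 pairs supplied 4037 of the 5259 wild-type reads. In the 9 pairs with 20 or fewer wild-type reads, nearest to the level of the members and chosen after their values were seen, the sums were 149 and 143 reads (ratio 1.04, interval 0.823 to 1.32). These pairs were picked by low wild-type reads, while no listed null region held fewer than 11 reads. That selection can itself move the ratio, so the 1.04 cannot show the scale between the libraries at this level. No expected read number in the other library was therefore computed for either gene. Total depth of the libraries is unknown, so depth and occupancy cannot be told apart in these ratios.

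The genes most like each member, by the same list, label and read number and then by position, are given here for comparison. For Ctnnb1, 14 other wild-type genes had an overlapping region with 12 reads. Of these regions 0 was in both lists, beside 16.6% of all wild-type regions. In order of position they included Stau2, which encodes a double-stranded RNA-binding protein, Frem2, an extracellular matrix gene, Gstcd and Klhl32. Frem2, Gstcd and Klhl32 had their midpoints 14.5 to 60.03 kb from the nearest start in the table. The Stau2 region, although labelled overlapping that gene, lay 1799 kb from the nearest start in the table, which does not hold starts for all genes. Proximity to a start was not particular to Ctnnb1: among the same 14, Hook2 lay 0.128 kb and Ndel1 1.18 kb from a start, both named after their values were seen. For Lef1, 11 other null genes had an overlapping region with 14 reads. Of these regions 3 were in both lists, beside 13.2% of all null regions. The 11 genes began with Bai3, an adhesion receptor gene, Phactr3, Schip1, Wipf3 and Pde1c, a cyclic nucleotide phosphodiesterase gene. The Pde1c region was in both lists, with 19 wild-type reads beside its 14 null reads. The other genes with shared regions, named after their values were seen, were A730081D07Rik with 24 wild-type reads and Litaf with 15. Regions with the read number of Lef1 thus reached the wild-type list at some genes.

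Few other pathway genes had a region, as for genes at large. Of 125 Wnt and beta-catenin pathway genes, Ctnnb1 alone was named in wild type and Lef1 alone in null, where 1 gene makes 0.8% of the 125. Over all protein-coding genes, 0.425% were named in the wild-type and 0.53% in the null list, shares at which 125 genes would hold under 1 named gene in each list. Neither the 1 named gene nor the lack of others sets the pathway apart, and the members were chosen for being named. No region was assigned to any of 23 ligand genes (Wnts and R-spondins), 22 genes of receptors and their partners, 12 secreted inhibitor genes, 3 Dishevelled genes, 14 destruction complex genes such as Apc, Axin1 and Gsk3b, 5 cadherin genes, 3 Wnt secretion genes, 17 nuclear co-factor genes or 15 target genes such as Myc and Ccnd1. Jup, the beta-catenin relative gamma-catenin, and the other 5 catenin genes were not named, nor were Tcf7, Tcf7l1 and Tcf7l2, the other TCF/LEF genes.

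By distance from the RefSeq span, 1 further gene came within 5 kb. A null region at chr5:135254401-135255150, with 15 reads and no gene assigned in the deposited list, lay 3.35 kb from Fzd9, which encodes a Frizzled receptor, and its midpoint was 3.73 kb before the Fzd9 start. It was not in the wild-type list. That made 2 of 125 pathway genes within 5 kb of a null region (1.6%, against 0.631% of all protein-coding genes) and 1 of 125 within 5 kb of a wild-type region (0.8%, against 0.498%). Further out, 14 of 125 (11.2%) lay within 1 Mb of a wild-type region, against 15.04% of protein-coding genes, and 23 (18.4%) within 1 Mb of a null region, against 18.0%. The median distance to the nearest region was 3.93 Mb in the wild-type list (4.54 Mb over all protein-coding genes) and 4.66 Mb in the null list (3.73 Mb). The nearest ligand gene, named after its value was seen, was Wnt6, 33.9 kb from a wild-type region with 15 reads that the deposited list assigns to Cyp27a1.

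**Figure D4:**
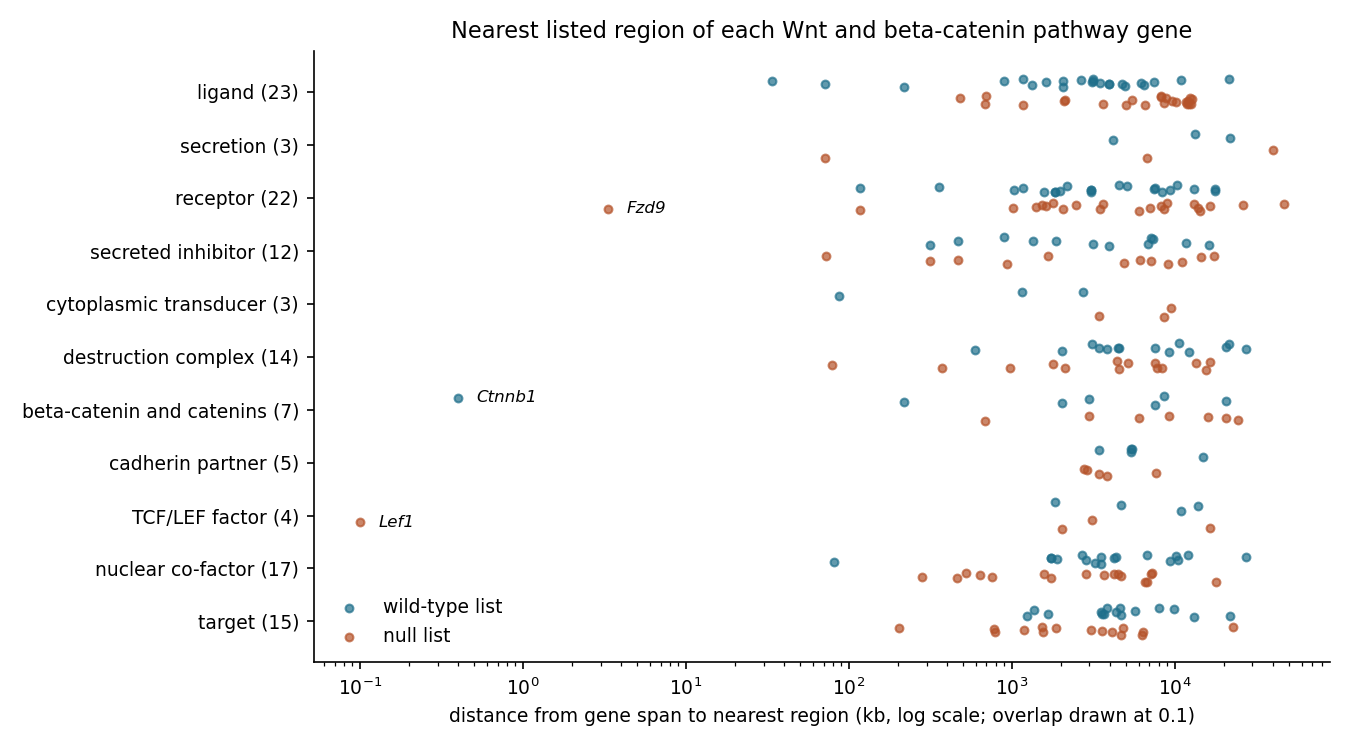
Distance from each of 125 pathway genes to the nearest listed region (x axis, kb, log scale, overlap drawn at 0.1), by role (y axis, with the number of genes) and list (colour, with vertical scatter for legibility). Ctnnb1 at 0.4 kb in the wild-type list, and Fzd9 at 3.35 kb and Lef1 with an overlap in the null list, lie apart from the other genes, which are all more than 30 kb away.

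Gene length differed between the members. Lef1, at 114 kb, was the 22nd longest of the 125 pathway genes, and Ctnnb1, at 27.1 kb, ranked 72 (median 33.6 kb, against 17.2 kb over all protein-coding genes). A longer gene offers more sequence in which a region can fall, and the part of length in the Lef1 assignment was not tested.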

How the data were processed

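One Smyd2 ChIP-seq library per Pkd1 genotype was used. The authors deposited, per the file headers, 1 list of regions for each library with an assigned gene, orientation, distance and 1 value on a log2 scale from the mapped reads. Raising 2 to that value gave a whole number in all 187 and 235 regions (relative tolerance 0.001), read here as a read number not scaled to depth. Coordinates follow GRCm38, the build that the submitters' processing notes name. Aligner, region rule, threshold and control use: not given in the sources used here. Listed reads summed to 7474 in the wild-type and 6718 in the null list. These sums are not library depths, which are unknown.

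Rank 1 is the region with most reads. Gene spans, starts and the bases before starts came from RefSeq tables (GRCm38.p6), in which both members were found. Intervals are 95% and cover counting error only. Pathway genes were 125 genes in 11 roles. The members, lists and naming rule (the members, pathway genes within 5 kb of a region, flanking genes and up to 5 genes of equal reads and label) were chosen with earlier results of these data known. Alternatives covered ties, width, read windows, gene assignment, distances and the read ratio. Software was Python 3.11.15, scipy 1.17.1, numpy 2.4.6, matplotlib 3.10.9 and pandas 2.3.3, and overlap code was tested on simulated regions.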

Additional observations from a re-analysis of the deposited data

How the results depend on the processing

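No paired analysis was possible because there was only 1 library of each genotype, which also left none to drop. Of 28 alternative values, 16 stayed within the counting interval of the value reported or, where it had no interval, equalled it. For ranks this says nothing about stability, because the counting intervals reach from rank 30 to 187 of 187 at Ctnnb1 and from 20 to 235 of 235 at Lef1. The middle rank of 147 at Ctnnb1 became 87.5 by reads per kb, and 83 among the 100 regions with a named gene. That of 103.5 at Lef1 became 46, and 52.5 among 133. With exactly equal reads the share in both lists was 0% for regions like Ctnnb1 and 19.05% for regions like Lef1. By overlap with the RefSeq span, 0 pathway genes had a wild-type region, and within 5 kb, or as nearest gene within 50 kb, 2 had a null region. The distance to the first start was -400 bp from the edge of the Ctnnb1 region and 34254 bp from that of the Lef1 region, and the deposited distance to the gene is 0 for both. Measured from the nearest Lef1 start, a setting chosen after seeing the data, the midpoint lay at -11443.5 bp, before that start and not after it. Without the 4 shared regions with most reads, the read ratio was 1.52, and in pairs with 20 or fewer wild-type reads, added after seeing the data, 1.04. Few reads per region limit every value.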
